A study of Mus musculus with 9 samples.

Results

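The DNA replication genes described here are 36 genes picked by symbol from textbook knowledge of the replication machinery. The rule used no measured value, but the members were chosen with earlier results of these data known. All 36 were found among the 34638 genes of the deposited table, each in a single row. They were sorted by role into origin licensing, helicase activation, polymerases and primase, sliding clamp and clamp loader, single-strand binding and Okazaki fragment joining, deoxynucleotide supply, and chromatin behind the fork.

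The values come from RNA sequencing of whole lung from 9 wild-type C57BL/6 mice in 3 groups of 3. Control mice (CON) received phosphate buffered saline. IL-33 mice received 0.5 µg of recombinant mouse IL-33, an epithelial alarmin that drives type 2 airway inflammation, into the trachea on days 0, 1, 2 and 3. IL-33+LM8 mice were given the same challenges and, before them, intraperitoneal LM8 at 10 mg/kg, an inhibitor of MyD88, the adaptor through which the IL-33 receptor signals. CON and IL-33 mice were female and of the same stated age range per the study's methods. The sex and age of IL-33+LM8 mice are not given in the sources used here. No group received LM8 without IL-33, and nothing in the sources used here describes an injection of vehicle in the other groups. Between 53877663 and 90607218 counts per mouse were assigned to genes. Lung markers were abundant in every mouse: *Sftpc*, the surfactant protein gene of alveolar type 2 cells, had means of 11030, 4993 and 9203 FPKM in CON, IL-33 and IL-33+LM8 mice (FPKM is fragments per kilobase of gene, scaled to library size).

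Before a cell copies its genome, the origin recognition complex, CDC6 and CDT1 load the ring of MCM subunits onto DNA. In S phase CDC45 and the GINS complex join the MCM ring to form the active helicase, and primase with the replicative polymerases copies the strands while the PCNA clamp, loaded by replication factor C, holds them in place. The enzymes that make deoxynucleotides are produced alongside. Many of these genes are transcribed at the G1/S border by E2F factors once retinoblastoma proteins release them. In a resting adult lung few cells replicate, and in whole tissue more replicating cells and more transcript per cell cannot be told apart.

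The promoters of 4 members are shown because they differ in E2F letters and in response: *Mcm3* and *Mcm6*, licensing subunits, *Rfc3*, a clamp loader gene with the smallest change among members that hold E2F letters, and *Rrm2*, the member with the largest rise. Each is 300 bases of RefSeq sequence on GRCm38.p6, from 250 bases before to 50 after the annotated start, written 5′ to 3′ on the strand of the gene. Capitals mark E2F letters, which are TTTCCCGC, TTTGGCGC, TTTCGCGC, TTTGCCGC or their reverse complements. *Mcm3* lies at chr1:20820263-20820562, *Mcm6* at chr1:128359656-128359955 and *Rfc3* at chr5:151651159-151651458, all on the minus strand, and *Rrm2* at chr12:24708004-24708303 on the plus strand.
Mcm3: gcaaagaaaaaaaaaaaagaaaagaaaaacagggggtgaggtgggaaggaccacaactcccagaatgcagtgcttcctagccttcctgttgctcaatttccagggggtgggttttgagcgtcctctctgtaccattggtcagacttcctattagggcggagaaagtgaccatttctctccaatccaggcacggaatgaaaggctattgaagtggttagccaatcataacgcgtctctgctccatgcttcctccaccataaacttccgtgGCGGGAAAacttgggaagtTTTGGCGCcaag
Mcm6: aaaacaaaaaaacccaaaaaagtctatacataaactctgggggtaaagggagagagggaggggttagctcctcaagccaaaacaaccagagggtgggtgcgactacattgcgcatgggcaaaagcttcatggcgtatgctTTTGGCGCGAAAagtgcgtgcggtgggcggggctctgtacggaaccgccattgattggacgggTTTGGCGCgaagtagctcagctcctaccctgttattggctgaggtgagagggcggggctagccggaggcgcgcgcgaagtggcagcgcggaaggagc
Rfc3: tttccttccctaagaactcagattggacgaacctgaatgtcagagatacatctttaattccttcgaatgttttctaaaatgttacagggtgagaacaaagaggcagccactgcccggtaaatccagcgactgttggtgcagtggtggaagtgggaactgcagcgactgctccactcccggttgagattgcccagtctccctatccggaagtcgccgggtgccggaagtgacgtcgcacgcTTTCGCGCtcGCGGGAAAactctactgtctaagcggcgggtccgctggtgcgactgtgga
Rrm2: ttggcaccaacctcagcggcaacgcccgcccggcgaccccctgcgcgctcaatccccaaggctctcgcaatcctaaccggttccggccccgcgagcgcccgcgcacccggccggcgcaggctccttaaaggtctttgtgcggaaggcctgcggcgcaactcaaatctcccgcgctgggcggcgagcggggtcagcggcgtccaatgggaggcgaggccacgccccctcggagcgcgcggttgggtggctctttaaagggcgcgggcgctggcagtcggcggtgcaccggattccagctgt
*Mcm6* held 3 matches, with a pair of them overlapping. *Mcm3* and *Rfc3* each held 2, those of *Mcm3* lying after the start, and *Rrm2* held none.

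The first comparison asked what IL-33 did to these genes. All 36 were higher in IL-33 mice than in CON mice, and in each of them the lowest IL-33 mouse lay above the highest CON mouse. A gene counted as called when its edgeR adjusted p was under 0.05 and its log2 fold change was at least 1 in size. By that rule 31 of 36 members (86.1%) were called higher, against 10.8% of the 16831 genes tested. The adjusted p alone was under 0.05 and the change upward for 36 of 36 members, against 27.4% of all genes, and groups did not overlap in that direction for 31.7% of all genes. The median log2 fold change of the members was 1.83, with a range from 0.33 for *Gins4* to 2.96 for *Rrm2*, whereas the median over all genes tested was -0.0053. Members not called were *Orc6*, *Gins4*, *Pola2*, *Rfc2* and *Rfc3*, each of which rose by less than 1 on the log2 scale.

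**Figure D1:**
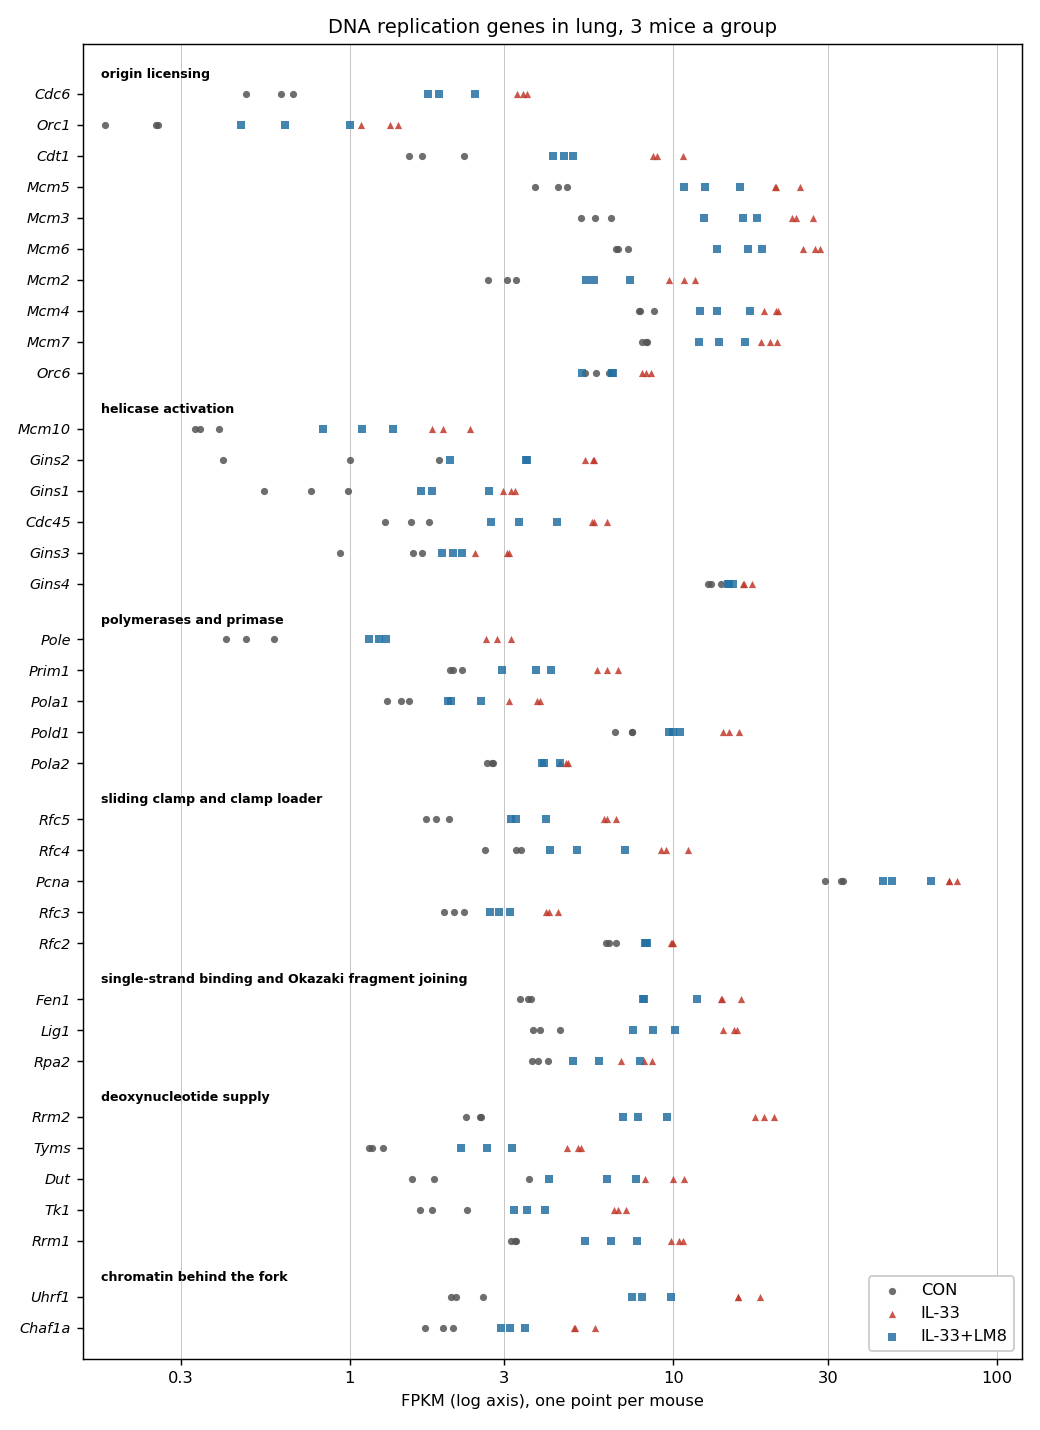
FPKM of the 36 replication genes in each mouse on a log axis, with 1 point per mouse and genes grouped by role and sorted by their change with IL-33. IL-33 mice lie above CON mice for all 36 genes, and IL-33+LM8 mice lie between the other groups without overlap for all but *Orc6* and *Rpa2*.

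All 10 licensing genes rose, 9 of them past the call threshold. *Cdc6*, whose product helps load the MCM ring, rose most in this role. It stood at 0.666, 0.479 and 0.613 FPKM in CON mice, at 3.53, 3.29 and 3.42 in IL-33 mice and at 1.74, 2.44 and 1.88 in IL-33+LM8 mice. The 3 groups did not overlap, and the rise with IL-33 was 2.53 ± 0.15 on the log2 scale (SE, n = 3 against 3, edgeR adjusted p = 1.1e-05). *Orc1*, the cell cycle-regulated subunit of the origin recognition complex, rose by 2.45 ± 0.24 and *Cdt1* by 2.36 ± 0.17. *Orc6*, a further subunit of the same complex, was at 6.31, 5.76 and 5.33 FPKM in CON mice and 8.53, 7.98 and 8.25 in IL-33 mice. Its rise of 0.50 ± 0.10 had an edgeR adjusted p of 0.0035, and its IL-33+LM8 values of 5.23, 6.49 and 6.47 FPKM overlapped those of CON mice.

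The 6 subunits of the MCM ring, the motor of the replicative helicase, all rose. *Mcm2* had 3.06, 3.27 and 2.68 FPKM in CON mice, 10.8, 9.71 and 11.7 in IL-33 mice, and 5.37, 7.36 and 5.68 in IL-33+LM8 mice. For *Mcm3* the CON values were 6.43, 5.73 and 5.17 FPKM, the IL-33 values 24.0, 23.3 and 27.1, and the IL-33+LM8 values 12.4, 18.2 and 16.4. *Mcm4* was at 8.72, 7.89 and 7.83 FPKM, then 21.1, 19.0 and 20.7, then 12.1, 17.3 and 13.6 in the same order of groups. These 3 genes had groups that stood apart from each other, with IL-33+LM8 mice in the middle. *Mcm5* had 4.70, 4.39 and 3.73 FPKM in CON mice, 20.7, 20.6 and 24.6 in IL-33 mice, and 10.8, 16.1 and 12.5 in IL-33+LM8 mice. *Mcm6* gave 6.74, 6.67 and 7.26 FPKM, then 27.4, 25.1 and 28.4, then 13.6, 18.8 and 17.0. *Mcm7*, whose introns host miRNA genes, gave 8.25, 7.98 and 8.29 FPKM, then 19.9, 18.7 and 20.9, then 12.0, 16.7 and 13.8. The same order without overlap held for these subunits too.

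Log2 fold changes with IL-33 were 2.36 ± 0.12 for *Mcm5*, 2.10 ± 0.10 for *Mcm3*, 1.97 ± 0.06 for *Mcm6*, 1.84 ± 0.10 for *Mcm2*, 1.31 ± 0.07 for *Mcm4* and 1.28 ± 0.06 for *Mcm7* (SE, n = 3 against 3). All of them were called. The 95% intervals of *Mcm4* (1.14 to 1.48) and *Mcm7* (1.14 to 1.41) lay below those of *Mcm2* (1.59 to 2.08) and *Mcm5* (2.08 to 2.63). The most abundant subunit was *Mcm4* or *Mcm7* in CON mice and *Mcm6* in every other mouse. FPKM of the most abundant subunit was 2.79 ± 0.329 times that of the least abundant, always *Mcm2*, in CON mice, 2.51 ± 0.0862 in IL-33 mice, with 2.70 ± 0.260 in IL-33+LM8 mice (SD, n = 3 each).

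Genes that turn the loaded ring into a helicase rose in 6 of 6 cases, with 5 called. *Mcm10*, which helps the helicase start unwinding, was at 0.393, 0.344 and 0.331 FPKM in CON mice, 1.94, 1.80 and 2.35 in IL-33 mice and 0.824, 1.36 and 1.09 in IL-33+LM8 mice. Its groups did not overlap, and its log2 fold change with IL-33 was 2.49 ± 0.15 (SE, n = 3 against 3, edgeR adjusted p = 1.4e-05). *Gins2* rose by 2.33 ± 0.47, *Gins1* by 2.03 ± 0.25, *Cdc45* by 1.93 ± 0.14 and *Gins3* by 1.04 ± 0.25. The wide error of *Gins2* came with CON values of 1.00, 0.406 and 1.88 FPKM. *Gins2* shares 2758 bases in the deposited coordinates with *Gse1* on the opposite strand, whose own log2 fold change was -0.55, and the strand setting of the counting is not given in the sources used here.

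*Gins4*, the remaining GINS subunit, behaved unlike its partners in FPKM and in change. It gave 12.8, 14.0 and 13.1 FPKM in CON mice, 17.5, 16.4 and 16.5 in IL-33 mice, and 14.9, 15.3 and 14.8 in IL-33+LM8 mice. The groups did not overlap, but its rise of 0.33 ± 0.08 (SE, n = 3 against 3, edgeR adjusted p = 0.00782) was the smallest of all 36. Since FPKM is scaled by gene length, levels can be set side by side: *Gins4* was 24.0 ± 10.2 times as high as the lowest GINS subunit in CON mice, 5.93 ± 0.775 times in IL-33 mice, with 8.37 ± 0.523 times in IL-33+LM8 mice (SD, n = 3 each).

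Polymerase and primase genes all rose, 4 of 5 past the call threshold. *Pole*, the catalytic subunit of the leading strand polymerase, was at 0.581, 0.413 and 0.479 FPKM in CON mice, 2.85, 2.64 and 3.15 in IL-33 mice and 1.29, 1.23 and 1.15 in IL-33+LM8 mice. The groups stood apart, and the rise with IL-33 was 2.54 ± 0.15 on the log2 scale (SE, n = 3 against 3, edgeR adjusted p = 1.2e-05). *Prim1*, the catalytic primase subunit, rose by 1.56 ± 0.09, *Pola1*, the catalytic subunit of the polymerase that extends primers, by 1.34 ± 0.11, and *Pold1*, the catalytic subunit of the lagging strand polymerase, by 1.06 ± 0.08. *Pola2*, the accessory subunit that accompanies *Pola1*, had 2.75, 2.65 and 2.78 FPKM in CON mice, 4.71, 4.67 and 4.46 in IL-33 mice and 3.93, 4.45 and 3.99 in IL-33+LM8 mice. Its rise was 0.75 ± 0.06 (edgeR adjusted p = 5.3e-05).

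The clamp and clamp loader genes held the most abundant member and some of the smallest rises. *Pcna* had means of 31.9 ± 2.19 FPKM in CON mice, 72.4 ± 2.35 in IL-33 mice, with 51.5 ± 9.76 in IL-33+LM8 mice (SD, n = 3 each), a rise with IL-33 of 1.18 ± 0.07 (SE). Among loader subunits, *Rfc5* changed most, from 1.72, 2.02 and 1.84 FPKM in CON mice to 6.66, 6.12 and 6.22 in IL-33 mice, with 3.16, 4.05 and 3.27 in IL-33+LM8 mice. That was a log2 fold change of 1.76 ± 0.09 (SE, n = 3 against 3, edgeR adjusted p = 6.8e-06). *Rfc4* followed with 1.67 ± 0.14 and *Rfc3* with 0.98 ± 0.11, just under the threshold for a call. *Rfc2* was lowest, at 6.34, 6.63 and 6.19 FPKM in CON mice, 9.96, 9.94 and 9.85 in IL-33 mice and 8.16, 8.29 and 8.21 in IL-33+LM8 mice, a rise of 0.63 ± 0.05 (edgeR adjusted p = 5.9e-05). *Rfc2* shares 1784 bases with *Lat2*, a leukocyte adaptor gene on the opposite strand whose own log2 fold change was 2.21, and how many of its counts were fragments of *Lat2* was not tested.

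Lagging strand genes rose in 3 of 3 cases, all called. *Fen1*, the flap nuclease that trims Okazaki fragments, went from 3.56, 3.63 and 3.35 FPKM in CON mice to 14.0, 14.1 and 16.2 in IL-33 mice and stood at 8.09, 11.8 and 8.06 in IL-33+LM8 mice. *Lig1*, the ligase that joins the fragments, went from 4.46, 3.86 and 3.69 to 15.7, 14.2 and 15.4, with 7.52, 10.1 and 8.64 in IL-33+LM8 mice. *Rpa2*, a subunit of the single-strand binding protein, went from 3.65, 4.10 and 3.82 to 8.62, 6.88 and 8.11, with 4.90, 7.90 and 5.87 in IL-33+LM8 mice. Groups stood apart for *Fen1* and *Lig1*, while for *Rpa2* the IL-33 and IL-33+LM8 mice overlapped. The log2 fold changes with IL-33 were 2.07 ± 0.09, 1.91 ± 0.09 and 1.03 ± 0.11 in that order (SE, n = 3 against 3).

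Deoxynucleotide supply held the largest rise. *Rrm2* (ENSMUSG00000020649), the small subunit of ribonucleotide reductase that is made in S phase, was at 2.54, 2.29 and 2.53 FPKM in CON mice, 19.0, 17.9 and 20.5 in IL-33 mice and 7.01, 9.53 and 7.79 in IL-33+LM8 mice. Its groups did not overlap, and its log2 fold change with IL-33 was 2.96 ± 0.09 (SE, n = 3 against 3, edgeR adjusted p = 1.1e-06), a 7.80-fold difference of mean FPKM. *Rrm1*, the large subunit, had 3.15, 3.23 and 3.26 FPKM in CON mice, 10.7, 9.84 and 10.4 in IL-33 mice and 5.34, 7.72 and 6.43 in IL-33+LM8 mice, with a change of 1.68 ± 0.05. By FPKM, *Rrm1* was the higher subunit in CON mice and *Rrm2* in every mouse of the other groups. Counts of *Rrm1* were above those of *Rrm2* in every mouse, at 8045 against 3602 in IL-33 replicate 1. The order of the subunits therefore depends on the gene lengths used for FPKM. *Tyms*, thymidylate synthase, rose by 2.05 ± 0.09, *Dut*, which degrades dUTP, by 2.05 ± 0.31, and *Tk1*, the cytosolic thymidine kinase of S phase, by 1.82 ± 0.14.

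Chromatin genes that act behind the fork both rose past the threshold. *Uhrf1* (ENSMUSG00000001228), which recruits the maintenance methyltransferase to newly copied DNA, was at 2.58, 2.13 and 2.05 FPKM in CON mice, 15.9, 15.8 and 18.5 in IL-33 mice and 7.45, 9.80 and 7.98 in IL-33+LM8 mice. The log2 fold change with IL-33 was 2.88 ± 0.12 (SE, n = 3 against 3, edgeR adjusted p = 3e-06). *Chaf1a*, the large subunit of the histone chaperone that deposits new nucleosomes, had 2.08, 1.71 and 1.94 FPKM in CON mice, 5.71, 4.94 and 4.96 in IL-33 mice and 2.93, 3.49 and 3.13 in IL-33+LM8 mice. Its rise was 1.44 ± 0.10, and the groups of both genes stood apart.

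Counts behind these values ran from 41 to 11685 per gene and mouse. A mean of at least 0.5 FPKM over the 9 mice, the filter for testing, was met by all 36 members, and by 33 of them in CON mice alone, with *Orc1*, *Mcm10* and *Pole* below it there. In the deposited coordinates 17 members overlap another gene and 11 a protein-coding one. The overlapping protein-coding genes had log2 fold changes with IL-33 from -0.60 for *Zswim9*, which overlaps *Lig1*, to 0.86 for *Afmid*, which overlaps *Tk1*, apart from *Lat2*. Calls near the threshold depended on single mice. *Gins3* was no longer called without CON replicate 3 or without IL-33 replicate 2, *Rpa2* without CON replicate 1 or IL-33 replicate 1, and *Rfc3* was called when CON replicate 1 or either of the first pair of IL-33 mice was left out.

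**Figure D2:**
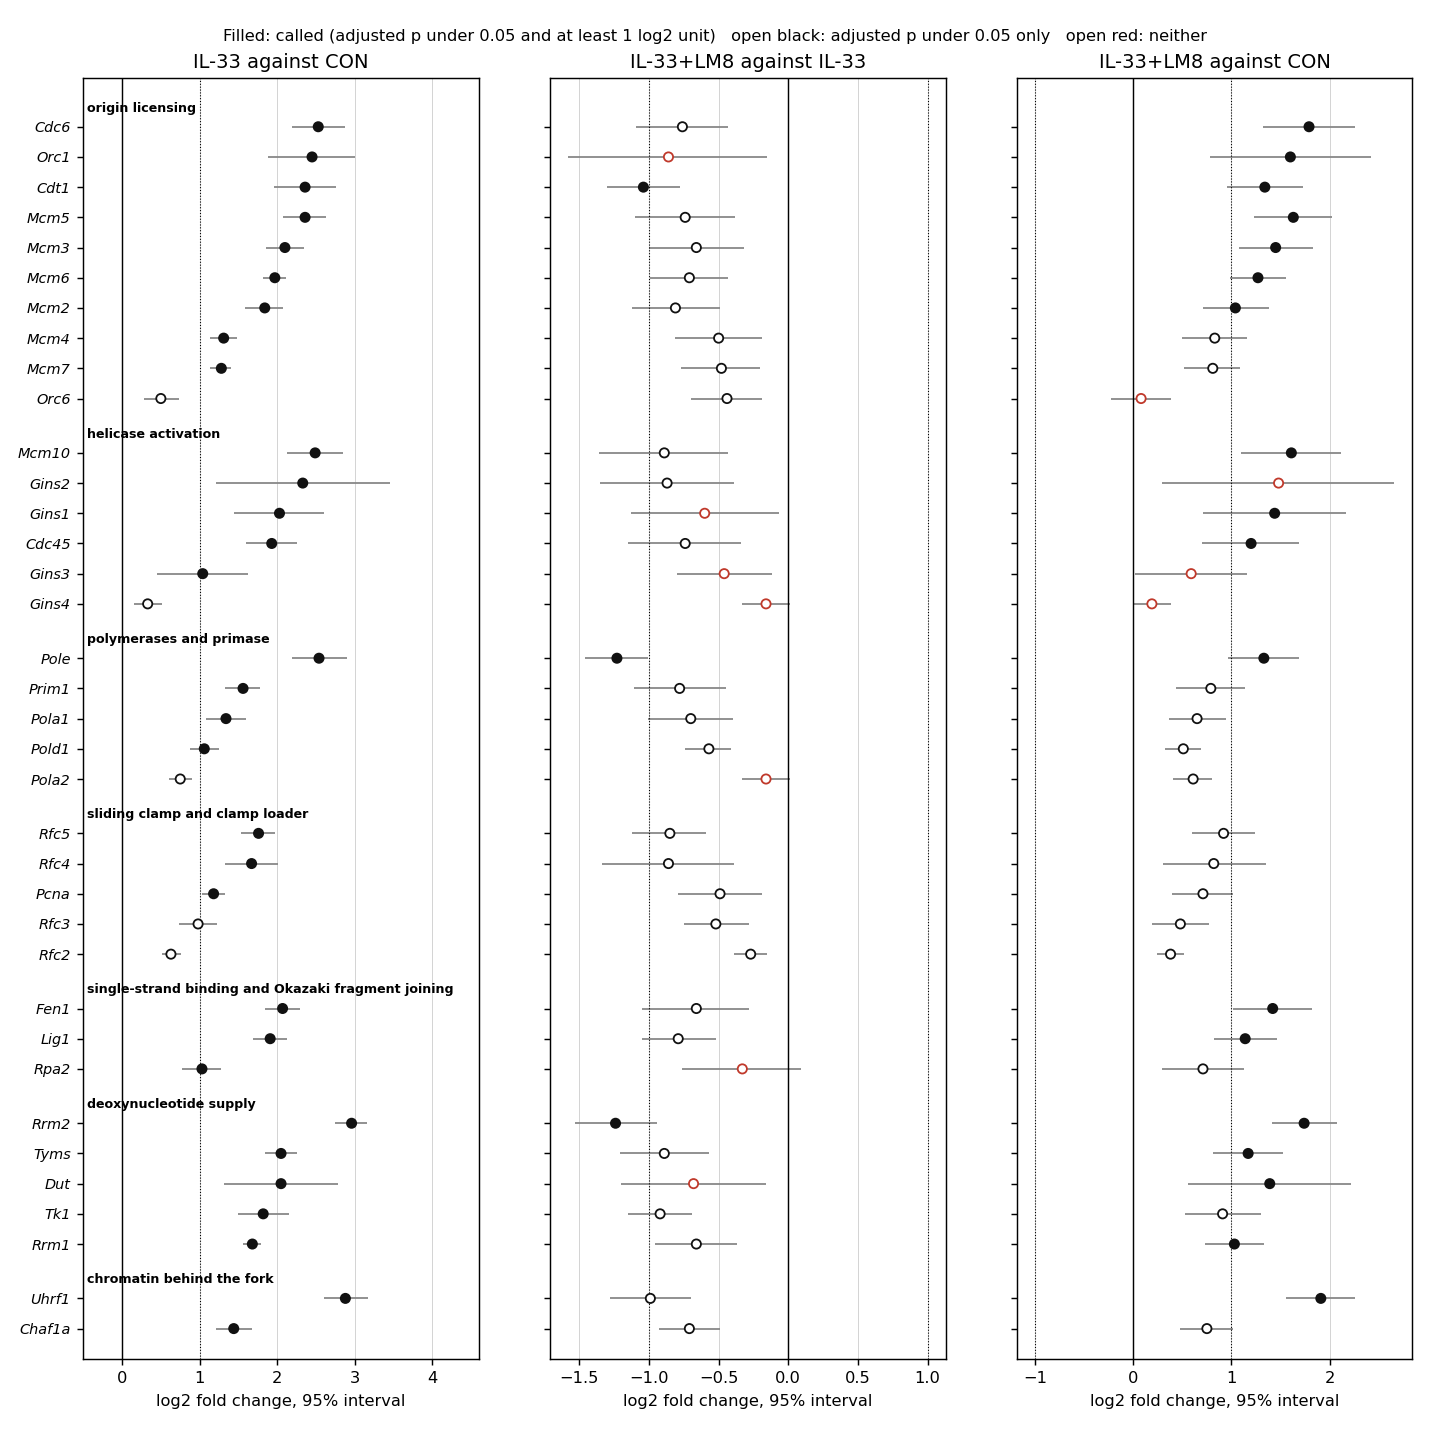
Log2 fold changes of the 36 genes in 3 comparisons, with points for the edgeR estimate, lines for the 95% interval and dotted lines at an absolute change of 1. In the first panel 31 points are filled (called), in the second 3 and in the last 18.

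Next, IL-33+LM8 mice were compared with IL-33 mice, which asks what LM8 given before IL-33 changed. Every member had a log2 fold change below 0, with a median of -0.71 and a range from -1.24 for *Rrm2* to -0.16 for *Pola2* and *Gins4*, against a median of -0.0062 over all 16831 genes. Only *Rrm2*, *Pole* and *Cdt1* were called lower, which is 3 of 36 members (8.33%) against 3.93% of all genes. By the adjusted p alone, 29 of 36 members (80.6%) were lower, against 13.9% of all genes. The groups did not overlap for 35 of 36 members, all but *Rpa2*, against 22.0% of all genes.

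*Rrm2* fell by 1.24 ± 0.13 on the log2 scale (SE, n = 3 against 3, edgeR adjusted p = 0.00051), so that its mean in IL-33+LM8 mice was 0.424 times that in IL-33 mice. *Pole* fell by 1.23 ± 0.10 (edgeR adjusted p = 0.00021) and *Cdt1* by 1.04 ± 0.11 (edgeR adjusted p = 0.00064). *Cdt1* was not called when IL-33 replicate 3 or IL-33+LM8 replicate 1 was left out. *Uhrf1*, with -0.99 ± 0.12, missed the minimum change and was called when IL-33 replicate 1 or 2 was left out. MCM subunits ranged from -0.81 ± 0.14 for *Mcm2* to -0.48 ± 0.12 for *Mcm7*, all with an edgeR adjusted p under 0.05 and none called. The members whose adjusted p did not reach 0.05 were *Orc1* (0.0764), *Gins1* (0.0939), *Gins3* (0.0563), *Gins4* (0.144), *Pola2* (0.162), *Rpa2* (0.225) and *Dut* (0.0602), all by edgeR. For *Pola2* the 95% interval of the change was -0.33 to 0.01 and for *Orc1* it was -1.58 to -0.15, so these 7 genes differ in how far their data limit a change.

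The spread among IL-33+LM8 mice was shared by most members. IL-33+LM8 replicate 2 had the highest FPKM of its group for 31 of 36 members and replicate 1 the lowest for 31. Relative to the CON mean, the median member stood at 1.74-fold in IL-33+LM8 replicate 1, 2.42-fold in replicate 2 and 1.94-fold in replicate 3. IL-33 mice ran from 3.35-fold in replicate 2, which was the lowest of its group for 28 members, to 3.78-fold in replicate 3. Summed FPKM of the 36 genes was 145 to 152 in CON mice, 408 to 450 in IL-33 mice, with 238 to 320 in IL-33+LM8 mice, with no overlap. Without IL-33+LM8 replicate 2, 9 members were called lower than in IL-33 mice and the median change was -0.87. The 6 gained were *Orc1*, *Mcm10*, *Rfc4*, *Tyms*, *Tk1* and *Uhrf1*. *Pole* and *Pold1* did not share this order, since both were highest in replicate 1, at 1.29 against 1.23 and 1.15 FPKM for *Pole* and 10.5 against 10.0 and 9.73 for *Pold1*. Summed mitosis genes were also highest in replicate 2, at 122 FPKM against 92.7 and 107. Leukocyte markers summed to 348, 352 and 346 FPKM in replicates 1, 2 and 3. The median leukocyte marker stood at 2.58, 2.83 and 2.77-fold of the CON mean in the same mice.

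IL-33+LM8 mice were also set against CON mice, which asks how much of the difference remained under LM8. This comparison shares mice with both others, so its values are given on their own. All 36 members had a log2 fold change above 0, with a median of 1.04 against 0.0035 over the 16829 genes tested. By the call rule 18 of 36 members (50%) were higher, against 5.87% of all genes, and 32 of 36 (88.9%) by the adjusted p alone, against 16.3%. The groups did not overlap for 35 of 36, against 23.4% of all genes.

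*Uhrf1* had the largest difference from CON mice, 1.91 ± 0.15 (SE, n = 3 against 3, edgeR adjusted p = 0.0002), followed by *Cdc6* with 1.79 ± 0.20 and *Rrm2* with 1.74 ± 0.14. *Orc6* was at the other end with 0.08 ± 0.13 and a 95% interval of -0.23 to 0.38. *Gins2* (1.48 ± 0.50), *Gins3* (0.59 ± 0.24) and *Gins4* (0.19 ± 0.08) were the other members with an edgeR adjusted p of 0.05 or more, at 0.0646, 0.108 and 0.122. *Gins2* was called in the fit with a replicate block, which raised the count to 19. Without IL-33+LM8 replicate 2, *Mcm2*, *Cdc45*, *Rrm1* and *Dut* were no longer called, which left 14. All 5 clamp and clamp loader genes had an adjusted p under 0.05 but changes from 0.38 to 0.92, so none was called. Of the members, 34 of 36 (94.4%) were ordered CON, IL-33+LM8, IL-33 with no overlap between groups, as were 10.7% of all genes tested. *Orc6* and *Rpa2* were the exceptions.

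Several members have a relative that does similar work outside S phase, which allows a ratio within each mouse. For *Orc1* another subunit of its own complex was used instead. The log2 ratio of *Rrm2* to *Rrm2b*, the reductase subunit used by resting cells, was -1.07 ± 0.17 in CON mice, 2.71 ± 0.10 in IL-33 mice, with 1.10 ± 0.38 in IL-33+LM8 mice (SD, n = 3 each). *Tk1* to *Tk2*, the mitochondrial thymidine kinase, went from -1.78 ± 0.29 to 0.19 ± 0.08 and stood at -0.91 ± 0.27 with LM8. *Lig1* to *Lig3*, a repair ligase, gave 0.12 ± 0.08, 1.82 ± 0.14 and 1.05 ± 0.27. These ratios separated the 3 groups without overlap. *Orc1* to *Orc3*, a subunit of the same complex, gave -4.95 ± 0.31, -2.37 ± 0.28 and -3.41 ± 0.49, and *Pola1* to *Polb*, a repair polymerase, gave -2.09 ± 0.12, -0.71 ± 0.20 and -1.43 ± 0.22. Groups stood apart here as well. Each of these differences had a two-sided exact permutation p of 0.1, the smallest that 3 against 3 mice allow, and 0.1 after Benjamini-Hochberg adjustment.

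**Figure D3:**
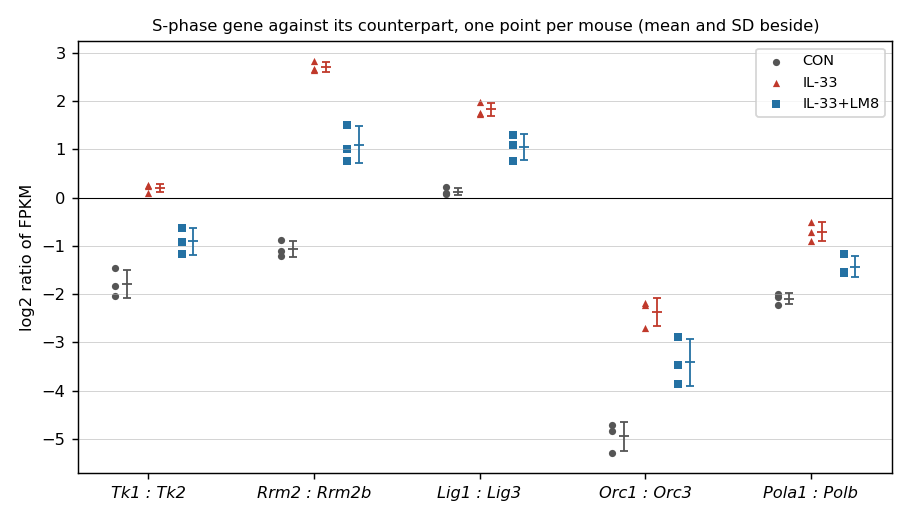
Log2 ratio of FPKM between an S-phase gene and its counterpart in each mouse, with the mean and SD of 3 mice beside the points. For *Orc1* the other gene was *Orc3*, a subunit of the same complex. All 5 ratios rank CON lowest, IL-33+LM8 next and IL-33 highest.

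None of the genes below the line of these ratios was called with IL-33. *Rrm2b* was lower in IL-33 than in CON mice, with a log2 fold change of -0.82 ± 0.07 (SE, n = 3 against 3, edgeR adjusted p = 7.3e-05), and *Tk2* had a change of -0.14 ± 0.12 (edgeR adjusted p = 0.354). Over the 12 counterparts not tied to S phase, the median log2 fold change with IL-33 was -0.04, with 2 called higher, *Dck* (1.85 ± 0.10), a nucleoside salvage kinase, and *Mcm8* (1.12 ± 0.15), a helicase of recombination. None was called lower. Among 42 other genes of the replication machinery 21 were called higher with IL-33 and none lower, with a median of 1.01. *Ticrr* (3.75 ± 0.27), which helps CDC45 reach the MCM ring, and *Pclaf* (3.33 ± 0.10), which binds PCNA, led that list. The origin recognition complex split: *Orc2* to *Orc5*, named after their values were seen, had log2 fold changes from -0.16 to 0.21 while *Orc1* rose by 2.45. *Gmnn*, the inhibitor of CDT1, rose by 1.47 ± 0.13 and *Dnmt1*, the maintenance methyltransferase, by 1.12 ± 0.07. With LM8, the 42 genes had a median of -0.51 against IL-33 mice, with 5 called lower, and of 0.62 against CON mice, with 13 called higher.

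Genes that set entry into S phase rose in part. Of 18 E2F and G1/S genes, 7 were called higher with IL-33 and none lower, with a median of 0.90. *Ccne1* (2.95 ± 0.19), the cyclin that drives S phase entry, and *E2f8* (2.78 ± 0.18), a repressor of the E2F family, led. *E2f1*, an activator of the family, went from 3.18 ± 0.430 FPKM in CON mice to 6.91 ± 0.415 in IL-33 mice, with 3.54 ± 0.266 in IL-33+LM8 mice (SD, n = 3 each). Its log2 fold change was 1.11 ± 0.12 with IL-33, -0.97 ± 0.10 between IL-33+LM8 and IL-33 mice, and 0.16 ± 0.14 between IL-33+LM8 and CON mice (edgeR adjusted p = 0.421). *Myc*, named after its values were seen, rose by 1.93 ± 0.08 and had a change of -0.11 ± 0.14 between IL-33+LM8 and IL-33 mice (edgeR adjusted p = 0.619). Of 12 brakes on S phase entry, *Rbl1* (1.27 ± 0.11), a retinoblastoma relative, and *Btg1* (1.01 ± 0.28), an antiproliferative gene, were called higher and *Cdkn1c* (-1.39 ± 0.27), a cyclin-dependent kinase inhibitor, lower, with a median of 0.30.

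All 20 mitosis genes were called higher with IL-33, with a median log2 fold change of 3.00, led by *Ccnb2* (3.28 ± 0.19) and *Cenpe* (3.23 ± 0.12), a mitotic cyclin and a kinetochore motor. *Mki67*, the proliferation marker, went from 3.53 ± 1.04 FPKM in CON mice to 30.7 ± 2.01 in IL-33 mice, with 11.9 ± 0.996 in IL-33+LM8 mice (SD, n = 3 each), and *Top2a*, the topoisomerase that separates chromosomes, from 2.67 ± 0.621 to 22.2 ± 2.38 and 9.59 ± 1.21. Between IL-33+LM8 and IL-33 mice all 20 were called lower with a median of -1.23, and between IL-33+LM8 and CON mice 19 were called higher with a median of 1.76. The difference between the medians of the lists was not tested.

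**Figure D4:**
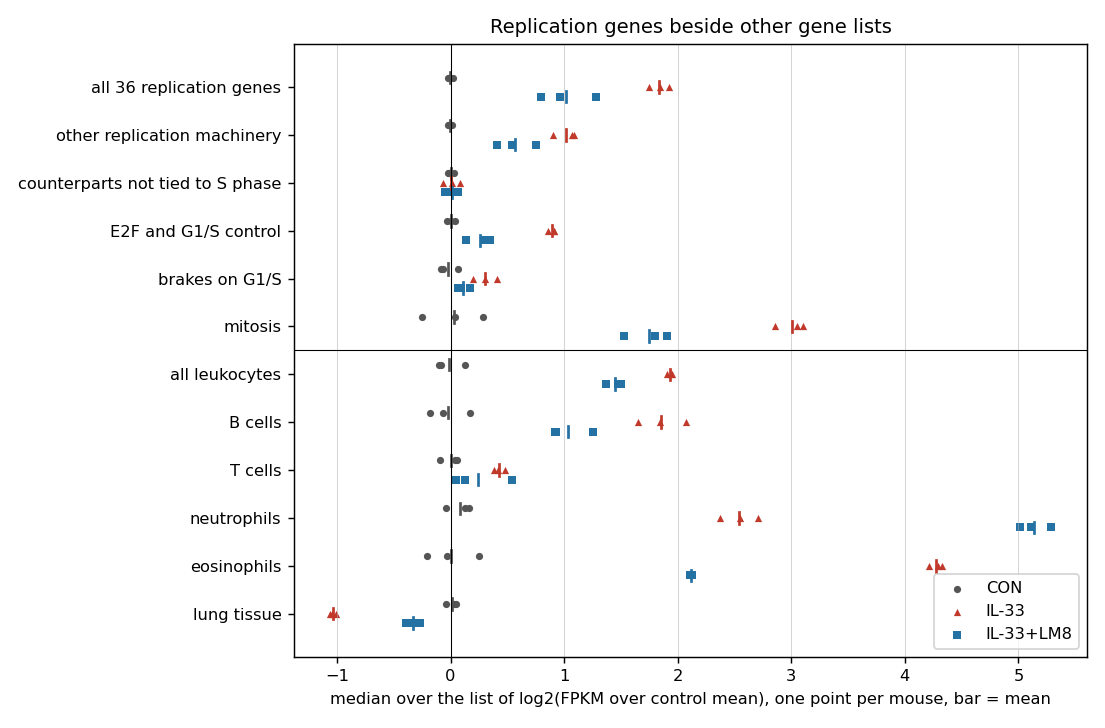
Median over each gene list of log2 FPKM relative to the CON mean, with 1 point per mouse and bars for group means; lists of the cell cycle are above the line and cell markers below it. The 36 replication genes, mitosis genes and B cell markers are intermediate in IL-33+LM8 mice, the counterparts stay near 0 and neutrophil markers are highest in IL-33+LM8 mice.

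Several lists of blood cell markers moved with the replication genes in the first comparison, and others did not. The 6 general leukocyte markers were all called higher with IL-33, and their summed FPKM was 122 to 139 in CON mice, 515 to 546 in IL-33 mice, with 346 to 352 in IL-33+LM8 mice. All 6 B cell markers were called higher, with sums of 37.3 to 47.8, 129 to 168 and 84.7 to 98.8 FPKM in the same order of groups. Of 6 ILC2 and Th2 markers 5 were called higher, with sums of 9.36 to 10.0, 53.6 to 64.4 and 25.6 to 27.5 FPKM. These sums, like those of the replication genes, were intermediate in IL-33+LM8 mice without overlap. So were the macrophage sums of 109 to 121, 445 to 473 and 212 to 226 FPKM, although of 7 tested markers 5 were called higher and 1 lower.

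Sums of the other lists did not show this order without overlap. Of 6 tested eosinophil markers 5 were called higher with IL-33, while *Ear1*, named after its values were seen, had a log2 fold change of -0.48 (edgeR adjusted p = 0.0158). The sums over the 7 listed genes were 22.0 to 26.2, 54.4 to 58.5 and 13.8 to 14.7 FPKM, so the sum in IL-33+LM8 mice lay below that in CON mice. *Ear1* made up most of the CON sum, with a mean of 19.4 of 23.5 FPKM. The median marker other than *Epx* stood between the groups, at 4.32 to 4.37-fold of the CON mean in IL-33+LM8 mice. In IL-33 mice it stood at 18.6 to 20.1-fold. Between IL-33+LM8 and CON mice, 3 of 6 tested eosinophil markers were called higher and 1 lower. *Epx*, a defining marker too low to be tested, had 0 counts in every CON mouse. Plasma cell markers, 3 of 5 called higher, summed to 60.7 to 78.0, 134 to 136 and 54.2 to 70.2 FPKM. None of 7 T cell markers was called, with sums of 16.1 to 17.7, 22.5 to 25.6 and 18.0 to 24.6 FPKM. Neutrophil markers, 7 of 7 called higher with IL-33, summed to 23.5 to 30.7 FPKM in CON mice, 177 to 197 in IL-33 mice, with 894 to 1020 in IL-33+LM8 mice, so they rose again where replication genes were lower. Erythroid sums went the other way, at 32.4 to 38.2, 13.0 to 14.8 and 61.3 to 62.4 FPKM, with 1 of 3 tested markers called lower with IL-33. That marker, *Alas2*, named after its values were seen, made up most of these sums, with means of 33.0, 12.5 and 58.4 FPKM. *Slc4a1*, also named afterwards, had a log2 fold change of -0.27 with IL-33 (edgeR adjusted p = 0.353).

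Among markers of resident tissue, sums of 6 lung markers were 33845 to 36753, 15347 to 16538 and 28567 to 30979 FPKM, with 3 called lower with IL-33. *Scgb1a1* and *Sftpc* made up most of these sums, with means of 21499 and 11030 FPKM in CON mice. *Sftpa1* went the other way, by 0.16 with IL-33 (edgeR adjusted p = 0.087) and 0.68 between IL-33+LM8 and CON mice (edgeR adjusted p = 0.00478). *Scgb1a1* and *Sftpa1* were named after their values were seen. Endothelial markers, 3 of 6 called lower, gave 652 to 737, 422 to 465 and 641 to 659 FPKM. Of 6 fibroblast markers 2 were called higher and 1 lower, with sums of 182 to 200, 287 to 333 and 166 to 174 FPKM. The markers called higher were the collagen genes *Col1a1* and *Col1a2*, named after their values were seen, and they carried the rise of the sum. By the edgeR adjusted p alone 4 of the 6 were lower with IL-33, and the median log2 fold change of the list was -0.67. The part of cell composition in the change of the replication genes was not tested.

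RefSeq promoters were found for 30 of the 36 members and not for *Gins1*, *Gins2*, *Gins4*, *Mcm4*, *Pole* and *Rfc2*. On either strand, E2F letters occurred in 13 of these 30 genes (43.3%), against 704 of 27025 genes with a promoter (2.60%) and 4.90% of the 8543 genes whose promoter had at least the median GC content of the members. The 13 were *Cdc6*, *Cdt1*, *Gins3*, *Lig1*, *Mcm3*, *Mcm5*, *Mcm6*, *Mcm7*, *Orc1*, *Pola1*, *Pold1*, *Rfc3* and *Uhrf1*. Their median log2 fold change with IL-33 was 1.97, from 0.98 for *Rfc3* to 2.88 for *Uhrf1*, and that of the 17 members without a match was 1.76, from 0.50 for *Orc6* to 2.96 for *Rrm2*. The ranges overlapped almost throughout, which the printed promoters of *Rfc3* and *Rrm2* show.

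CCAAT letters, which may share end bases with the other motifs, were found in 63.3% of members and 41.1% of all genes. CHR letters, TTTGAA or TTCGAA on either strand, the element named for genes of late cell cycle, were in 6 of 30 members (20%) against 21.7% of all genes. Mitosis genes had the reverse makeup, with E2F letters in 1 of 16 genes (6.25%) and CHR letters in 12 of 16 (75%). E2F letters were in 34.3% of the other replication machinery with a promoter, 42.9% of the E2F and G1/S genes and 10.0% of the counterparts. A match describes these letters only and is no evidence of binding.

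**Figure D5:**
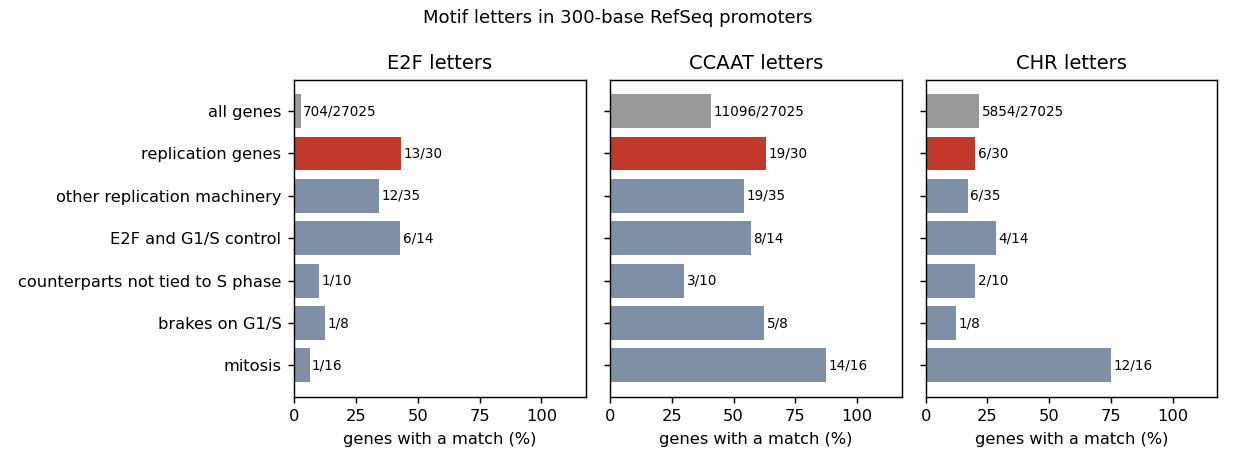
Percent of genes with E2F, CCAAT or CHR letters in their RefSeq promoter of 300 bases, with the number of genes at each bar. E2F letters reach 43.3% of replication genes and 2.60% of all genes, and CHR letters 75% of mitosis genes.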

How the data were processed

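Lung RNA of 9 mice in 3 groups of 3 was sequenced, and groups were taken from the treatment label of each sample. A single table deposited by the authors gives, for each gene and mouse, raw read counts and FPKM (counts scaled by gene length and library size). The submitters' processing notes list HISAT2 2.0, StringTie 1.3.0, Bowtie 0.12.2 and mm10 without their roles. The strand setting of the counting and the test used in the study are not given in the sources used here. Of the table's genes 32643 had an identifier in GENCODE M21, but only 583 had the same coordinates and 0 of the 36 members did, so none of its coordinates is printed.

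Counts were tested with edgeR 4.0.16 (R 4.3.3) by glmQLFit and glmQLFTest after TMM normalization, on the 6 mice of each comparison, after genes with a mean under 0.5 FPKM over the 9 mice, or at 0 counts throughout the 6, had been removed. P-values were adjusted over all genes tested by the Benjamini-Hochberg method, and a call needed an adjusted p under 0.05 with a log2 fold change of 1 or more in size. SE is the change divided by the square root of F, and intervals are at 95%. The fits were checked on simulated counts at an adjusted p under 0.05. Of 100 genes changed by 1 log2 unit, edgeR recovered 55 in IL-33 against CON. It recovered 63 in IL-33+LM8 against IL-33 and 56 in IL-33+LM8 against CON. Of 100 changed by 2 units it recovered 85, 86 and 87 in that order, with 12, 14 and 10 false calls. Ratios within mice were tested by exact permutation (SciPy 1.17.1, two-sided). FPKM folds use no pseudocount. DESeq2 1.42.0 and limma 3.58.1 served as alternatives, with other scalings and filters, a fit with a replicate block, and fits that leave out each mouse in turn.

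Total counts were 61767006 to 73869252 in CON mice, 53877663 to 66029783 in IL-33 mice and 59753648 to 90607218 in IL-33+LM8 mice. No library was a copy of another: replicates varied 23.5 to 55.1 times as much as sampling alone would give. That they are separate mice is taken from the labels, and p-values measure the spread between these samples. Replicate numbers come from the sample titles. Same-numbered CON and IL-33+LM8 mice had correlated deviations (0.35, 0.37 and 0.70), and those of the other pairs of groups ranged from -0.49 to 0.37. Differently numbered CON and IL-33+LM8 mice ranged from -0.49 to 0.26. The highest correlations over all pairs, 0.71 and 0.73, were between mice of different numbers.

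All members are named. In each role the members with the largest and smallest change with IL-33 (all where the role has at most 3) and the MCM ring are given in every mouse. From other lists the 2 largest called rises and falls are named, with *Mki67*, *Top2a*, *E2f1*, *Rrm2b*, *Tk2*, *Gmnn* and *Dnmt1*. Members and lists were chosen with earlier results of these data known. Promoters are RefSeq sequences of GRCm38.p6 matched by symbol.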

Additional observations from a re-analysis of the deposited data

How the results depend on the processing

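With 3 mice a group, small differences between members cannot be resolved, and counting without a stated strand setting leaves overlapping genes uncertain. No member changed direction under any alternative. Shares of all genes below count calls in either direction. In IL-33 against CON, 17 of the 20 members tested were called at a mean of at least 5 FPKM (13.7% of all genes). There limma on log2(FPKM + 1) called 26 (10.3% of all genes) with a median of 1.37, losing *Orc1*, *Gins3*, *Pola1*, *Pold1* and *Rpa2*. Leaving out 1 mouse gave 30 to 31 calls (16.2% to 17.3% of all genes) and medians of 1.75 to 1.89. In IL-33+LM8 against IL-33, limma on log2(FPKM + 1) called 1 of 36 members, against 2.61% of all genes. With no minimum change 29 were called, all lower, against 13.9% of all genes lower. Leaving out 1 mouse gave 2 to 9 calls (4.63% to 5.72% of all genes) and medians of -0.87 to -0.61. Both 9 and -0.87 were without IL-33+LM8 replicate 2. In IL-33+LM8 against CON, limma on log2(FPKM + 1) called 7 (3.49% of all genes) with a median of 0.69. At a mean of at least 5 FPKM 10 of 20 were called (5.47% of all genes), and 32 with no minimum change (16.3% of all genes higher). Leaving out 1 mouse gave 14 to 18 calls (6.38% to 7.71% of all genes) and medians of 0.89 to 1.14. By limma on log2(FPKM + 0.1) the counts were 31, 3 and 16, where the pseudocount of 1 shrinks members of low FPKM, and by DESeq2 they were 31, 3 and 18. Shares of all genes were 16.5%, 4.94% and 6.67% by that limma fit and 17%, 5.54% and 7.64% by DESeq2. The fit at 5 FPKM tests fewer members by its construction.

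With a replicate block, 31, 3 and 19 members were called in the order above, with medians of 1.84, -0.72 and 1.02, and the block changed no call but that of *Gins2* in IL-33+LM8 against CON. Of all genes this fit called 16.9%, 4.97% and 8.11%. The deepest libraries of the groups (CON replicate 3, IL-33 replicate 1 and IL-33+LM8 replicate 3) deviated together with correlations of 0.70 to 0.73. With an indicator for them, chosen after seeing the data, 31, 3 and 19 were called, against 17.4%, 5.53% and 7.94% of all genes. Other scalings moved the median of all genes by at most 0.04.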
